A study of Drosophila melanogaster with 18 samples.

Results

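The genes described here belong to a set of 9 genes of the Fanconi anemia and homologous recombination pathways, taken from the count table by matching its FlyBase gene identifiers to a list of symbols. All 9 were found among the 17811 features of the table, and 8 are described: Fancd2, Fancl, spn-B, spn-D, okr, Brca2, Blm and Gen. They were measured by RNA-seq of ribosome-depleted total nuclear RNA from Drosophila R1-R6 outer photoreceptors, whose nuclei were immunoenriched from male flies through a GFP tag on the outer nuclear membrane. The study compared aging with blue light stress in the same flies. There were 6 conditions with 3 samples each, 18 in all: untreated flies aged to day 5 (D5), day 15 (D15) and day 30 (D30), and D5 flies frozen right after blue light for 3 h, 5 h or 8 h. Each sample was a pool of many flies, and all carried the same genotype, w1118; cn bw with the Rh1-GFP-Msp300KASH insertion 3-1, so the flies had white eyes, and all were raised with 12 h of light a day. The tag was driven by the ninaE (Rh1) regulatory elements, and this single insertion lies in the 5′ region of Catalase, an enzyme that removes hydrogen peroxide and is overexpressed in the line, in D5 controls as well. The findings therefore apply to 1 insertion line with raised Catalase.

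Homologous recombination repairs a DNA double-strand break by copying an intact homologous duplex. The broken end is resected, the single strand invades the homologous duplex with the help of BRCA2 and the motor protein RAD54, and the joint molecules that form are dissolved by the BLM helicase or cut by structure-specific nucleases. The Fanconi pathway deals with DNA interstrand crosslinks and stalled forks, and its central step is the attachment of ubiquitin to FANCD2 by the ligase FANCL. Photoreceptors are postmitotic neurons, and in flies several of these genes, the spindle (spn) genes and okra (okr) among them, are best known from meiosis in the female germline.

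Positions are those of the Ensembl annotation of BDGP6.54, and all 8 genes are annotated as protein coding. Fancd2 (FBgn0038827) lies on chromosome 3R from 20810804 to 20816190 on the minus strand, with 14 exon blocks. Fancl (FBgn0037781) spans 3R from 10051508 to 10052869 on the minus strand. The spindle gene spn-B (FBgn0003480) spans 3R from 14328051 to 14329608 on the plus strand, and the spindle gene spn-D (FBgn0003482) spans 3R from 27165716 to 27167122 on the plus strand. The Rad54 gene okr (FBgn0002989) spans 2L from 2989594 to 2992759 on the minus strand, and Brca2 (FBgn0050169) spans 2R from 24526172 to 24529581 on the plus strand. Blm (FBgn0002906) spans 3R from 11736810 to 11741783 on the minus strand, and the nuclease gene Gen (FBgn0263831) spans 3L from 5149849 to 5152376 on the minus strand.

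The samples held 11.4 to 20.5 M read pairs counted on genes, which were 24.5% to 44.9% of all pairs in the table. Pairs with several alignments made up 25.2% to 26.6% at D30 and 6.33% to 10.5% in the other conditions. All 13 R1-R6 marker genes found in the table were present, with summed levels of 49240 to 93143 cpm, the counts of a gene scaled to library size, so the nuclei carried the phototransduction genes of the labelled cell type. The D5 and D15 libraries were sequenced in the same lane, those of the 3 blue light groups in a different lane, and those of D30 on a separate flow cell. Lane and condition therefore cannot be told apart in any comparison with D5 except D15. The comparison of 8 h with 3 h was also made within a lane. Beside the members, the 5107 coding features under the count filter summed to 2480 to 4022 cpm at D5, to 4443 to 8106 cpm at D30, wholly above D5, and to 6350 to 8262 cpm at 3 h, with 5 h replicate 1 (7543 cpm) apart from the other 5 h samples. Their part in the results below was not tested.

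Members were present at low levels. Per length, Brca2 was highest with a mean of 4.31 RPKM over the 18 samples, followed by Blm (4.07 RPKM), spn-B (2.71 RPKM), okr (2.57 RPKM), Fancd2 (1.84 RPKM) and Gen (1.27 RPKM). The Brca2 level stood at the 31.5th percentile and the Gen level at the 5.04th percentile of the 9427 genes tested, whose median was 7.76 RPKM. Neighbours in this order overlapped in their sample ranges, and Brca2 exceeded Blm in only 10 of 18 samples and spn-B exceeded okr in 5 of 18. The clearest step was that from Gen to Fancl, with Gen the higher in 17 of 18 samples.

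Of the 8 members described, 6 had more than 10 counts in every sample and were tested in edgeR with the other genes, with calls made at an adjusted p under 0.05. The fit held 2 RUVs factors, which are values per sample estimated from differences between replicates and removed as unwanted variation, and values without factors are given where they change a call. The 2 that did not were Fancl, the ubiquitin ligase, and spn-D, a spindle gene of meiotic recombination. Fancl had counts of 7, 14 and 4 at D5, 10, 6 and 6 at D15, 31, 9 and 7 at D30, 12, 7 and 13 at 3 h, 16, 5 and 5 at 5 h and 2, 3 and 11 at 8 h. Its highest sample was D30 replicate 1, and every condition overlapped with D5. The counts of spn-D were 3, 9 and 4 at D5, 7, 3 and 2 at D15, 20, 7 and 7 at D30, 10, 7 and 6 at 3 h, 3, 0 and 5 at 5 h and 1, 2 and 0 at 8 h. In cpm, all 3 samples of spn-D at 8 h lay under all 3 at D5 (exact permutation test of cpm, two-sided p = 0.1, the smallest that 3 against 3 samples allow). All 3 samples at D30 lay above all 3 at D5, narrowly, with a lowest value of 0.514 cpm against a highest of 0.512 cpm. At such counts a change of either gene was not detectable, and in edgeR without a count filter neither was called (spn-D at 8 h, log2 fold change -1.82, SE 1.13, adjusted p = 0.326).

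**Figure D1:**
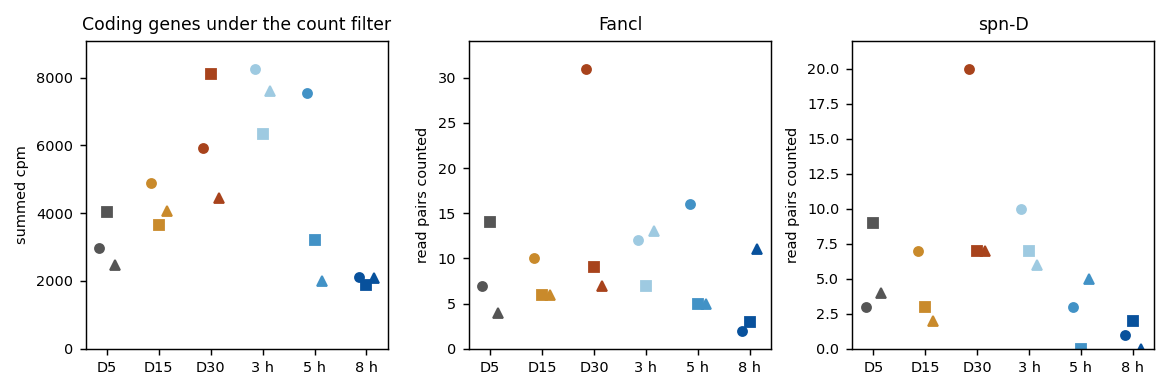
Left, summed cpm of all coding genes that missed the count filter. Middle and right, read pairs counted on Fancl and spn-D, by sample and condition (circle, square and triangle are replicates 1, 2 and 3). Both genes have their highest count in D30 replicate 1 (31 and 20), and the summed cpm is higher in the 3 h samples and in 5 h replicate 1 than at D5 and 8 h.

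Aging was the first question, and Fancd2, the crosslink repair protein at the center of the Fanconi pathway, rose most clearly. Fancd2 stood at 3.70, 7.28 and 3.44 cpm at D5, at 12.6, 10.5 and 9.91 cpm at D15 and at 13.6, 20.6 and 12.2 cpm at D30. All D15 and D30 samples lay above all D5 samples, and the groups did not overlap. Fancd2 was 2.85-fold higher at D30 (log2 1.51 ± 0.24 SE, edgeR adjusted p = 0.00103) and 2.45-fold higher at D15 (1.29, SE 0.25, adjusted p = 0.0175). In these bulk samples, more nuclei of a cell type with the transcript and more transcript per nucleus cannot be told apart. The D30 rise passed the test under all 11 alternative settings and without each of the 18 samples in turn, with log2 fold changes of 1.05 to 1.93. The D15 rise was compared within 1 sequencing lane, and it lost significance without D5 replicate 3 (log2 fold change 1.17, adjusted p = 0.101), D15 replicate 1 (1.22, adjusted p = 0.073), D15 replicate 3 (1.35, adjusted p = 0.058) or D30 replicate 3 (1.07, adjusted p = 0.071), and in the fit without factors (1.2, adjusted p = 0.13). Fits of only the 6 D5 and D15 samples (1.17, adjusted p = 0.0519) and with a replicate block without factors (1.21, adjusted p = 0.102) also lost it.

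Blm, the RecQ helicase that dissolves joint molecules, was the other member called at D15. It measured 19.9, 15.3 and 16.9 cpm at D5, 26.1, 26.4 and 25.3 cpm at D15, and 22.5, 22.3 and 21.8 cpm at D30. Both older groups lay wholly above D5. The change passed the test in edgeR at D15 (1.53-fold, log2 0.61 ± 0.16 SE, adjusted p = 0.0439) but not at D30 (0.39 ± 0.15 SE, adjusted p = 0.0932), where it passed with the replicate block beside the factors (0.47, adjusted p = 0.0376) and without 3 h replicate 3 (0.42, adjusted p = 0.038). The D15 call was lost without D5 replicates 2 or 3, any D15 sample or D30 replicate 3, and without factors (0.58, adjusted p = 0.144). It was lost as well without a count filter (0.60, adjusted p = 0.0769) and with the replicate block without factors (0.58, adjusted p = 0.148).

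The remaining members did not pass the test with age. Gen, a nuclease whose human counterpart cuts Holliday junctions, stood at 2.28, 2.05 and 1.18 cpm at D5 and at 4.95, 4.70 and 2.91 cpm at D30. The groups were apart, with a log2 fold change of 1.05 (SE 0.37, edgeR adjusted p = 0.0634), and the call was gained without D5 replicate 1 (adjusted p = 0.049) or D30 replicate 3 (adjusted p = 0.024). It was gained as well with 1 factor (1.21, edgeR adjusted p = 0.0389) and in the DESeq2 Wald test (1.03, adjusted p = 0.0392). The D15 samples of Gen (1.87, 2.60 and 3.91 cpm) overlapped with D5. The Rad54 gene okr, a motor that drives strand invasion, was at 5.02, 6.54 and 5.23 cpm at D5, at 8.45, 7.80 and 9.24 cpm at D15 and at 5.11, 8.45 and 6.69 cpm at D30. Its D15 samples lay above D5 (log2 fold change 0.59, SE 0.22, adjusted p = 0.137, and 0.038 without D30 replicate 1), whereas its D30 samples overlapped with D5. Brca2, a mediator of strand invasion, was 13.1, 13.5 and 14.2 cpm at D5, 16.6, 16.7 and 21.2 cpm at D15 and 13, 13.4 and 14.4 cpm at D30. Its D15 samples also lay above D5 (0.36, SE 0.16, adjusted p = 0.221), and its D30 mean was 0.999 times that of D5. The spindle gene spn-B, at 2.51, 2.22 and 1.23 cpm at D5, overlapped with D5 at both ages.

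In counts, 2 of the 6 tested members rose at D15 and 0 fell, beside 1.54% of all tested genes called higher and 2.31% called lower. At D30, 1 of 6 rose and 0 fell, beside 8.75% of all genes higher and 8.71% lower. The median log2 fold change of the members was 0.60 at D15 and 0.34 at D30, against -0.01 and 0.05 over all genes tested. Groups did not overlap, with the older samples higher, for 4 of 6 members at D15 (16.8% of all genes) and for 3 of 6 at D30 (15.4% of all genes). D15 and D30 were compared with the same D5 samples. Calls over all genes at D15 depended strongly on the factors and fell from 363 to 15 without them, when none of the 6 was called.

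**Figure D2:**
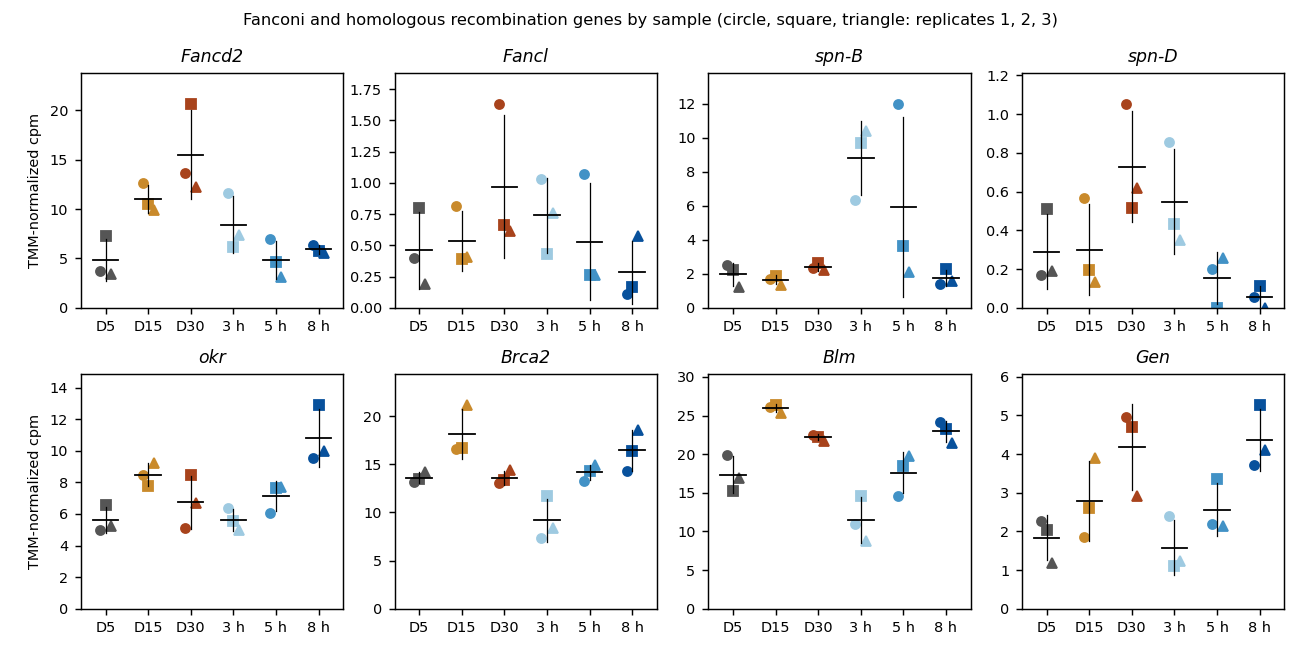
TMM-normalized cpm of each of the 8 members (y axis, from 0) by condition (x axis). Points are samples (circle, square and triangle are replicates 1, 2 and 3), horizontal lines are means and vertical lines are SD (n = 3). Fancd2 is highest at D30, spn-B at 3 h, okr and Gen at 8 h, and Brca2 and Blm lowest at 3 h.

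Blue light was the other question, and after 8 h the member that changed was the nuclease gene Gen. Gen rose from 2.28, 2.05 and 1.18 cpm at D5 to 3.71, 5.28 and 4.11 cpm at 8 h. All 3 light-treated samples lay above all D5 samples, and Gen was 3.04-fold higher (log2 fold change 1.60, SE 0.45, edgeR adjusted p = 0.0378), also when no factors were fitted (1.25, adjusted p = 0.0251). The call was lost without D5 replicates 2 or 3, 3 h replicate 3 or 8 h replicates 2 or 3, with adjusted p up to 0.108. The replicate block beside the factors ended it as well (1.72, adjusted p = 0.0594).

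The Rad54 gene okr had its highest level in the study after 8 h. It measured 9.53, 12.9 and 9.999 cpm, wholly above the 5.02 to 6.54 cpm of D5. Its log2 fold change was 0.86 (SE 0.26, edgeR adjusted p = 0.0539), narrowly outside the threshold, and it passed in 9 of 11 alternative settings, with 0.95 (adjusted p = 0.00841) without factors. It also passed without D5 replicate 2, 3 h replicate 1, 5 h replicate 1, 8 h replicate 1 or any D30 sample. Fancd2 at 8 h, with 6.41, 5.78 and 5.57 cpm, lay within the D5 range of 3.44 to 7.28 cpm, and its log2 fold change of 0.81 (adjusted p = 0.105) did not pass. It passed without D5 replicate 2 (1.04, adjusted p = 0.042) or D30 replicate 1 (0.76, adjusted p = 0.009), and was 0.30 without factors. Of the 11 alternative settings it passed in 3. These were 3 factors (0.82, adjusted p = 0.0447), cpm over 1 in 3 samples (0.90, adjusted p = 0.0203) and no filter (0.79, adjusted p = 0.0292). Blm at 8 h (24.1, 23.3 and 21.4 cpm) and Brca2 (14.3, 16.4 and 18.6 cpm) lay above their D5 samples, with log2 fold changes of 0.35 (adjusted p = 0.242) and 0.07 (adjusted p = 0.858).

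At 8 h, 1 of 6 tested members rose and 0 fell, beside 4.61% of all genes higher and 4.48% lower, and the members' median log2 fold change was 0.58 against -0.03 over all genes. Without factors 2 of the 6 were called higher, when 7.79% of all genes were called higher and 11.3% lower. The groups of 4 of the 6 did not overlap, with 8 h higher, beside 25.1% of all genes. These values share the D5 samples with those of age. Summed cpm of the coding genes under the count filter was 1874 to 2121 at 8 h, against 2480 to 4022 at D5.

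After 3 h the member that stood out in the normalized counts was spn-B, a recombination gene known from oocytes. It was 2.51, 2.22 and 1.23 cpm at D5 and 6.35, 9.69 and 10.4 cpm at 3 h. No samples overlapped, and the mean was 4.44 times that of D5. In the fit with factors its log2 fold change was 0.91 (SE 0.34, edgeR adjusted p = 0.117), which did not pass, and without factors it was 2.16 (SE 0.48, adjusted p = 0.00732). The call was gained without D5 replicate 1 (1.16, adjusted p = 0.049) or 5 h replicate 1 (1.59, adjusted p = 0.037). At 5 h the spn-B samples were 12.0, 3.66 and 2.13 cpm, of which replicate 1 was far above the others and replicate 3 lay within D5, and the log2 fold change was 0.57 (adjusted p = 0.263) with factors and 1.57 (adjusted p = 0.0443) without. By 8 h the samples of spn-B (1.40, 2.30 and 1.56 cpm) were back in the D5 range.

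The first RUVs factor was 0.41 to 0.57 in the 3 h samples and 0.84 in 5 h replicate 1, against -0.27 to -0.07 at D5, so it was high in the same samples as spn-B. In those samples the summed cpm of the coding genes under the filter was high too. That sum was 5911 and 8106 cpm in D30 replicates 1 and 2, and spn-B there was 2.32 and 2.64 cpm. Of 10 glial markers 1 was called higher at 3 h, the glutamate transporter gene Eaat1, at 1115 to 1841 cpm against 89.4 to 165 cpm at D5. The other 9 together were lower, with 501 to 565 cpm at 3 h against 639.6 to 723 cpm at D5, and none of them was called. Whether these values had a part in the spn-B level was not tested.

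Brca2 and Blm were at their lowest after 3 h. Brca2 stood at 7.38, 11.7 and 8.39 cpm against 13.1 to 14.2 cpm at D5, and Blm stood at 11, 14.6 and 8.80 cpm against 15.3 to 19.9 cpm. Neither gene had an overlapping sample. In all, the 3 h and D5 groups did not overlap for 1 of 6 members with 3 h higher and 2 with 3 h lower, beside 22.3% and 22.9% of all genes. With factors the log2 fold changes of -0.50 for Brca2 (SE 0.20, edgeR adjusted p = 0.138) and -0.34 for Blm (SE 0.19, adjusted p = 0.306) did not pass, and without factors both did (-0.57, adjusted p = 0.0342, and -0.60, adjusted p = 0.0288). Brca2 also passed without 3 h replicate 2 (-0.70, adjusted p = 0.048). Fancd2 at 3 h (11.7, 6.17 and 7.39 cpm), okr (6.35, 5.55 and 4.99 cpm) and Gen (2.40, 1.11 and 1.23 cpm) overlapped with D5.

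At 3 h, 0 of 6 members were called in edgeR (2 at an unadjusted p under 0.05), beside 4.64% of all genes higher and 3.25% lower. DESeq2 with the same factors also called 0. Without factors 3 were called, 1 higher and 2 lower, when 12.9% of all genes were called higher and 6.3% lower. At 5 h the count was again 0 of 6 (0 at an unadjusted p under 0.05), beside 4.99% higher and 4.38% lower, with 0 by DESeq2 and 1 higher without factors, when 8.14% of all genes were called higher and 4.08% lower. The 5 h values of Fancd2 (6.94, 4.6 and 3.11 cpm), okr (6.07, 7.64 and 7.73 cpm), Brca2 (13.3, 14.3 and 14.9 cpm), Blm (14.6, 18.4 and 19.8 cpm) and Gen (2.20, 3.35 and 2.13 cpm) all overlapped with D5.

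**Figure D3:**
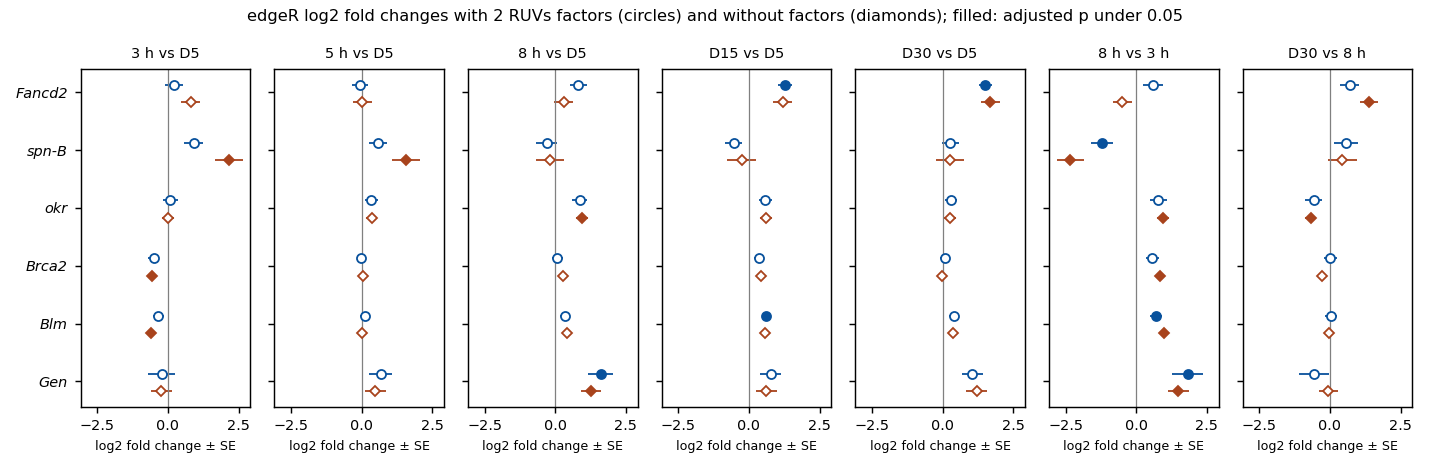
Log2 fold changes (x axis) of the 6 tested members in 7 comparisons, first condition over second, with 2 RUVs factors (circles) and without factors (diamonds). Bars are SE, and filled symbols have an edgeR adjusted p under 0.05. Fancd2 at D30 and Gen at 8 h are filled in both fits, whereas spn-B, Brca2 and Blm at 3 h are filled only without factors and the D15 calls only with them.

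The course of blue light exposure was compared between 8 h and 3 h, which shared a lane. Gen was 3.53-fold higher at 8 h in edgeR (log2 1.82 ± 0.55 SE, adjusted p = 0.0373) and Blm 1.62-fold higher (0.69 ± 0.22 SE, adjusted p = 0.0449). In the other direction, spn-B was lower (-1.21, SE 0.39, adjusted p = 0.0465), its 3 samples at 8 h lying under all 3 at 3 h. Thus 2 of 6 members were higher and 1 was lower, beside 6.4% of all genes higher and 9.08% lower. The samples of okr and Brca2 were also apart, with 0.78 (adjusted p = 0.0965) and 0.57 (adjusted p = 0.0991), and both passed without factors (0.94, adjusted p = 0.00296, and 0.84, adjusted p = 0.0022). In that fit 16.9% of all genes were called higher and 19.8% lower. How many of all genes had groups apart was not counted for this comparison. With a sample left out okr passed without D30 replicates 1 or 3, 3 h replicate 1 or 5 h replicate 1, and Brca2 without D30 replicate 3 or 3 h replicate 2. The Gen call was lost without 3 h replicates 2 or 3, 5 h replicate 3 or 8 h replicates 2 or 3. The spn-B call was lost without any D15 or 8 h sample, 3 h replicates 2 or 3 or 5 h replicate 2, and the Blm call without replicates 1 or 2 of D15 or D30, replicates 1 or 3 of 3 h, or any 5 h or 8 h sample. Over all 18 fits without 1 sample the log2 fold changes ranged from 1.5 to 2.19 for Gen, from -2.05 to -1.04 for spn-B and from 0.54 to 0.98 for Blm. With the replicate block beside the factors only spn-B of the 3 was called, and Blm was 0.44 (adjusted p = 0.276).

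Age and the longest light exposure were set against each other as D30 over 8 h, where 0 of 6 members were called in edgeR (0 at an unadjusted p under 0.05, 0 by DESeq2), beside 4.6% of all genes higher and 2.9% lower. The fit turned on the factors again. Fancd2 samples at D30 (12.2 to 20.6 cpm) lay above those at 8 h (5.57 to 6.41 cpm), and its log2 fold change was 0.71 (SE 0.33, adjusted p = 0.213) with factors and 1.39 (adjusted p = 0.00745) without. The reverse held for okr, at 5.11 to 8.45 cpm against 9.53 to 12.9 cpm, with -0.57 (adjusted p = 0.280) and -0.68 (adjusted p = 0.0239). Without factors 16.8% of all genes were called higher and 9.03% lower. How many of all genes had groups apart was not counted here either. Fancd2 was also called without D30 replicate 3 or 3 h replicate 1, and okr without D30 replicate 1 or 3 h replicate 1. The D30 mean of Gen was 0.958 times that at 8 h and the samples overlapped, while its fitted log2 fold change was -0.55 (SE 0.53, adjusted p = 0.573), and between -0.72 and -0.05 under the 11 alternative settings.

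Over the 18 samples some members paired closely by their log2 cpm. Brca2 and Blm had a Pearson r of 0.85. The r of okr was 0.64 with Gen, 0.61 with Brca2 and 0.59 with Blm, while spn-B ran opposite to Blm (-0.78) and Brca2 (-0.71). Fancd2 and Brca2 had an r of -0.10. These values describe 18 points that share 6 conditions and 3 lane groups, with the RUVs factors not removed. How far they follow the condition means or the factors was not tested.

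**Figure D4:**
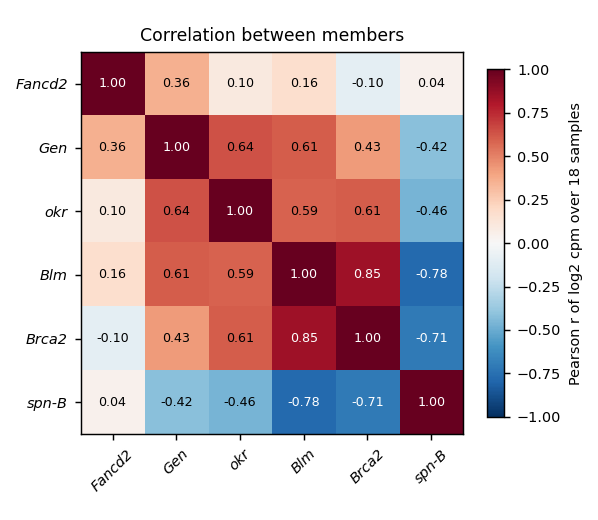
Pearson r of log2 cpm between the 6 tested members over 18 samples (colour scale from -1 to 1, value in each cell). Brca2 with Blm has the highest r of 0.85, and spn-B is negative with Blm (-0.78) and Brca2 (-0.71).

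The tested genes most like the called members were found by the same measure. For Fancd2 they were Jhbp16 (r = 0.92), Npc1b (0.92), a sterol transport gene, and CG15646 (0.91). For spn-B they were CG11788 (0.96), Cox17 (0.95), a copper chaperone for cytochrome oxidase, and the ribosomal protein gene RpS15Aa (0.94). JIL-1 (0.94), which encodes a histone H3 kinase, CG33181 (0.93) and CG7692 (0.93) were most like Blm. For Gen they were Grip71 (0.84), Rrp1 (0.83), an apurinic endonuclease gene, and viaf (0.82).

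In vertebrates FANCD2 and FANCI form a clamp on DNA, and fly FANCI was called higher at D15, D30 and 8 h in the fit with factors. FANCI was 5.01 ± 0.67 cpm at D5 (SD, n = 3), 8.34 ± 1.2 at D15, 10.6 ± 1.5 at D30 and 7.21 ± 0.24 at 8 h. Its log2 fold change was 0.86 at D15 (SE 0.18, edgeR adjusted p = 0.0221), 0.99 at D30 (SE 0.17, adjusted p = 0.0018) and 0.77 at 8 h (SE 0.21, adjusted p = 0.0366). Of the 8 genes listed with Fanconi and crosslink repair beside the members, 6 were tested. At 8 h 2 of them rose, FANCI and PolQ, the polymerase of end joining by microhomology (0.71, adjusted p = 0.0286), and at D30 FANCI and slx1, the catalytic part of a nuclease (0.78, adjusted p = 0.0174). The gene slx1 was also the called gene of the list at 3 h (1.56, adjusted p = 0.00168) and 5 h (0.95, adjusted p = 0.0135), from 2.81 ± 0.28 cpm at D5 to 14.5 ± 3.4 at 3 h. None of the 6 fell against D5. In the fit without factors 0 of the 6 were called at D15, so the FANCI call there was lost. That fit called 1 of the 6 higher at D30 and 2 at 8 h. Their median was 0.72 at 8 h, 0.25 at D15 and 0.55 at D30.

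Upstream of strand invasion, 6 of the 9 listed genes of end resection and single-strand binding were found and tested. At D30 mre11 (0.57, edgeR adjusted p = 0.0468) and rad50 (1.04, adjusted p = 0.000195) rose, which encode parts of the complex that opens the break for resection. They also rose at 8 h, mre11 by 0.93 (adjusted p = 0.0191) and rad50 by 0.72 (adjusted p = 0.00914). At 5 h rad50, nbs and RPA1 rose (0.93, 0.63 and 0.81), where SDs of 36, 22 and 47 cpm around means of 52.5, 30.1 and 53.7 show the spread among the 3 samples. At 3 h mre11 (-0.96) and nbs (-0.92) were called lower although their mean cpm were 5.28 against 5.90 and 11.8 against 10.5, and without factors 2 of the 6 genes were called higher and 0 lower. Without factors 0 of the 6 were called at D30 and at 8 h.

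The other lists gave few calls. Among strand exchange partners, 3 of 6 were tested, and Marcal1, an annealing helicase gene, fell at 3 h (-1.14, edgeR adjusted p = 0.0134) while Sem1, whose mammalian counterpart binds BRCA2, fell at 8 h (-1.32, adjusted p = 0.0314). Of the joint molecule genes, 4 of 6 were tested, and 2 rose at D30, Top3alpha (0.64, adjusted p = 0.049), the topoisomerase partner of Blm, and the helicase gene RecQ5 (0.45, adjusted p = 0.0228). The Smc5/6 complex had 5 of 7 genes tested and 1 that fell at 3 h, SMC6 (-0.96, adjusted p = 0.00627). The mean of SMC6 was 15.5 cpm at 3 h against 19.4 cpm at D5. Checkpoint genes had 9 of 10 tested, with p53 higher at 5 h (0.93, adjusted p = 0.0432) and tefu, the fly ATM kinase, higher at D30 (0.51, adjusted p = 0.0312). The p53 mean was 7.12 cpm at D5, 24.2 cpm at 3 h and 20.3 cpm at 5 h (SD 12.6). Its log2 fold change of 0.96 at 3 h (edgeR adjusted p = 0.0615) did not pass. Only 2 of 12 listed meiotic genes reached the filter, of which c(3)G fell at 5 h (-0.95, adjusted p = 0.0457). Of 12 replication and division genes 5 were tested and 0 were called against D5. Several of these counts changed without factors. The Smc5/6 genes then had 0 calls at 3 h, and the joint molecule and checkpoint genes had 0 at D30. Of the checkpoint genes, 2 were then higher and 1 lower at 3 h, and 1 was higher and 2 lower at 8 h. Of the joint molecule genes 1 was then higher at 8 h. Of the replication and division genes, 1 was then higher at 3 h and 1 lower at 8 h.

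**Figure D5:**
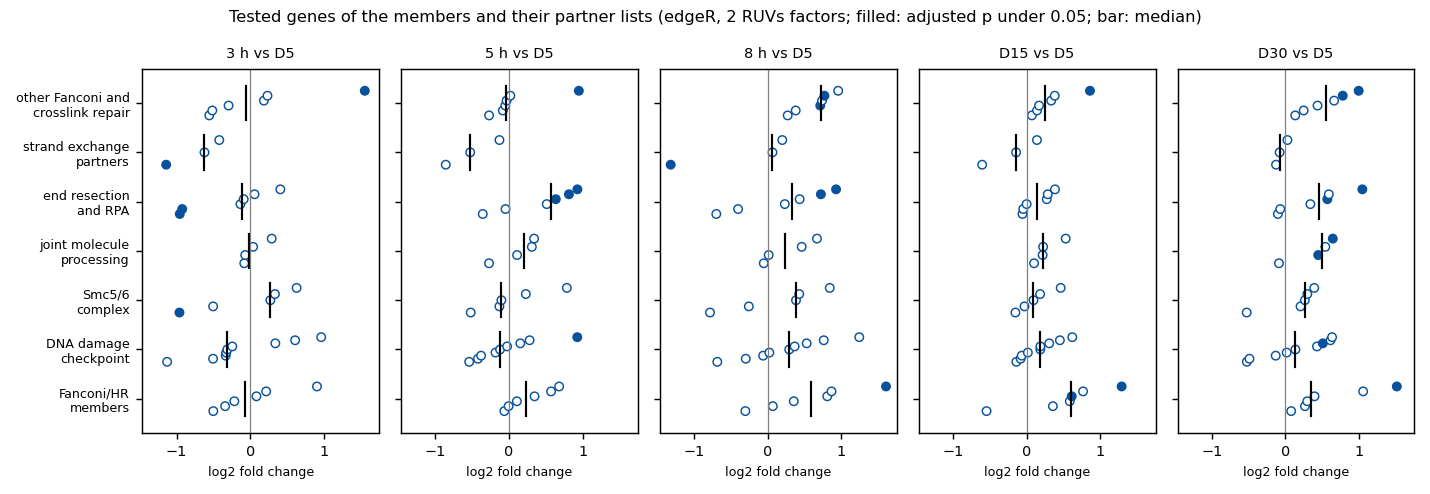
Log2 fold changes against D5 (x axis) of the tested genes of 6 repair lists and of the 6 tested members (rows), in edgeR with 2 RUVs factors. Each point is a gene, filled points have an adjusted p under 0.05 and vertical bars are list medians. At 8 h the medians are 0.72 for the other Fanconi genes and 0.58 for the members, and at D30 they are 0.55 and 0.34.

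Markers of other cells moved with age and light and were set beside the members. Of 12 markers of other neurons, 6 fell at D15 and 10 at D30, with a median log2 fold change of -0.85 at D30, and 2 fell at 8 h. When no factors were fitted, 2 of the 12 fell at D15, 5 at D30 and 9 at 8 h. Of 13 R1-R6 markers 5 rose at D30 and 1 fell, among them ninaE, the gene of the main rhodopsin of these cells (1.00, edgeR adjusted p = 0.000627), which rose, and the channel gene trpl (-0.52, adjusted p = 0.0433). Of 10 glial markers 3 fell at D30, Eaat1 (-0.97), nrv2 (-0.51) and alrm (-0.63), and the trehalose transporter gene Tret1-1 rose (0.89). Of the 6 tested genes of the list used for R7 and R8 (Rh3, Rh4, Rh5, Rh6, pros and svp), Rh4 rose (0.85, adjusted p = 0.0202) and pros fell (-0.97, adjusted p = 0.00491). Whether this list and the R1-R6 list separate those cells from each other was not tested. Without factors 1 of the R1-R6 markers and 0 of the glial markers were called at D30. Of 7 hemocyte markers 4 fell at D15 and 4 at D30, and without factors 2 fell at D15 and 2 at D30. Germline markers, which bear on genes known from the germline, were low in all samples, and none of the 9 found was at 0 in all 18. They summed to 8.3 to 18 cpm at D5, 15 to 25.3 cpm at D15, 22 to 46.1 cpm at D30, 19 to 29.8 cpm at 3 h, 9.52 to 24.1 cpm at 5 h and 6.23 to 11.8 cpm at 8 h. At D30 2 of the 4 tested germline markers rose, the piRNA pathway genes aub (1.30, edgeR adjusted p = 0.0235) and AGO3 (1.16, adjusted p = 0.0452). In the fit without factors 0 of these 4 were called at D30. The part of these cells or transcripts in the Fancd2 level was not tested.

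Genes that overlap a member on the other strand could share its reads, since the strand setting of the counting is not given in the sources used here. The longest exonic overlaps were 482 bases of okr (16.7% of its exons) with Bem46, at a mean of 19.2 cpm, and 196 bases of spn-B (14.2%) with NK7.1, at a mean of 349 cpm. Neither neighbour was called in any comparison with D5. Each other overlap was at most 68 bases.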

How the data were processed

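Male fly R1-R6 nuclear RNA was sequenced as paired reads. The deposited table holds raw read counts per gene, which the authors made with Trimmomatic, HISAT2 and HTSeq (version 0.11.1 per the labels, another version in the methods) on the dm6 assembly, and did not normalize. Rows of pairs counted on no gene held 55.1% to 75.5% of pairs and were left out. Samples were grouped by the labels' treatment. Each sample pooled many flies, and the methods call the 3 samples of a condition biological replicates without saying how their cultures were kept apart.

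Features with more than 10 counts in all 18 samples (9427, 52.9%) were kept. The study states a cpm threshold of the same number, which was read as counts. RUVs with 2 factors was written anew and tested on simulated data. Counts of all samples were fitted in edgeR 4.0.16 (R 4.3.3) with TMM normalization and the factors, and quasi-likelihood F-tests gave 7 comparisons, with Benjamini-Hochberg adjustment over all genes tested. SE is that of the log2 fold change. Values in cpm are TMM-normalized over tested genes with the factors not removed, and RPKM divides them by the union of exons. Names matched 17710 of 17811 features by identifier in the Ensembl BDGP6.54 annotation, and the symbols RPA2, RPA3, Dna2, Rmi1, inaF and nos of the lists matched none.

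The members, gene lists and tests were chosen with earlier results of these data known. Named were the members, of which 1 is not reported here, called genes of each list (at most 4 per list, by size), the 3 tested genes with the highest r to each called member, and overlapping genes. Alternatives were 0, 1 or 3 factors, 2 other filters, upper-quartile or DESeq2 size factors, a DESeq2 1.42.0 Wald test, 6-sample fits, replicate blocks and fits without each sample. All 18 samples were distinct libraries, and the replicate numbers were not used as pairs. No sequences are shown.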

Additional observations from a re-analysis of the deposited data

How the results depend on the processing

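Members called, out of 6 tested, numbered 1 at 8 h, 2 at D15, 1 at D30 and 0 at 3 h and at 5 h (each vs D5), with 3 for 8 h vs 3 h and 0 for D30 vs 8 h, and changed with the setting. Without factors the counts were 3 at 3 h, 1 at 5 h, 2 at 8 h, 0 at D15, 5 for 8 h vs 3 h and 2 for D30 vs 8 h. With 1 factor they were 2 at 8 h, 2 at D30, 5 for 8 h vs 3 h and 2 for D30 vs 8 h, and with 3 factors 3 at 8 h. Calls over all genes under the same settings are given below. Without a filter they were 1 at 3 h, 3 at 8 h, 1 at D15 and 5 for 8 h vs 3 h, with cpm over 1 in 3 samples 3 at 8 h, and by DESeq2 2 at 8 h and 2 at D30. With only the 6 samples of a comparison they were 1 at 3 h, 2 at 8 h, 1 at D15, 5 for 8 h vs 3 h and 1 for D30 vs 8 h. Leaving out each sample gave 0 to 1 at 3 h, 0 at 5 h, 0 to 3 at 8 h, 0 to 3 at D15, 1 to 2 at D30, 0 to 5 for 8 h vs 3 h and 0 to 2 for D30 vs 8 h.

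The replicate numbers did not pair the samples throughout. After removal of the factors the mean correlation of same-numbered deviations was between -0.15 and 0.26, and in no comparison were all 3 pairs over 0.1. Single pairs ran from -0.21 (D30 vs 8 h, replicate 1) to 0.56 (5 h vs D5, replicate 1), with 0.40 for D30 vs D5, replicate 2. Before removal the means were between -0.05 and 0.17. With the replicate block beside the factors 2 members were called at D30 and 1 for 8 h vs 3 h, and with the block without factors 3 at 3 h, 2 at 8 h, 0 at D15, 5 for 8 h vs 3 h and 2 for D30 vs 8 h.

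Calls over all genes were 743 at 3 h, 883 at 5 h, 857 at 8 h, 363 at D15, 1646 at D30, 1459 for 8 h vs 3 h and 707 for D30 vs 8 h, out of 9427 genes tested. Without factors they were 1807 at 3 h, 1152 at 5 h, 1799 at 8 h, 15 at D15, 415 at D30, 3457 for 8 h vs 3 h and 2436 for D30 vs 8 h. With 1 factor they were 436 at 3 h, 3288 at 8 h, 1198 at D30, 2477 for 8 h vs 3 h and 3658 for D30 vs 8 h. With cpm over 1 in 3 samples they were 1858 at 8 h and 567 at D30, out of 12984 genes tested. Without a filter they were 1005 at 3 h, 2125 at 8 h, 351 at D15, 628 at D30 and 2085 for 8 h vs 3 h, out of 17024. By DESeq2 they were 1152 at 8 h, 677 at D15 and 1891 at D30. With only 6 samples they were 2685 at 3 h (of 10509 tested), 0 at 5 h, 3259 at 8 h, 855 at D15, 315 at D30, 4430 for 8 h vs 3 h and 2653 for D30 vs 8 h. With the block beside the factors they were 559 at D15, 1834 at D30 and 821 for 8 h vs 3 h, and with the block without factors 1868 at 3 h, 1889 at 8 h, 11 at D15, 458 at D30, 3504 for 8 h vs 3 h and 2485 for D30 vs 8 h. With 3 factors 1304 were called at 5 h and 1228 at 8 h. Leaving out each sample gave 413 to 905 at 3 h, 498 to 1692 at 5 h, 486 to 3464 at 8 h, 10 to 1527 at D15, 897 to 1781 at D30, 771 to 2941 for 8 h vs 3 h and 333 to 3439 for D30 vs 8 h.

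Some log2 fold changes of uncalled members turned sign. For 3 h vs D5, okr became -0.093 with 3 factors. For 5 h vs D5, Fancd2 became 0.018 without factors, 0.12 with cpm over 1 in 3 samples, 0.12 without a filter, 0.027 with the block beside the factors, 0.00054 with the block alone and 0.030 with 6 samples. For 5 h vs D5, Brca2 became 0.058 without factors, 0.10 with 1 factor, 0.036 with cpm over 1 in 3 samples, 0.0077 without a filter, 0.045 with the block beside the factors, 0.056 with the block alone and 0.068 with 6 samples. For 8 h vs D5, spn-B became 0.054 with cpm over 1 in 3 samples and 0.019 without a filter. For D30 vs D5, Brca2 became -0.0030 without factors, -0.0016 without a filter, -0.0018 with the block alone and -0.085 with 6 samples. For 8 h vs 3 h, Fancd2 became -0.50 without factors, -0.49 with the block alone and -0.49 with 6 samples. For D30 vs 8 h, Brca2 became -0.28 without factors, -0.27 with 1 factor, -0.011 with 3 factors, -0.19 with cpm over 1 in 3 samples, -0.18 without a filter, -0.011 with upper quartiles, -0.0021 by DESeq2, -0.20 with the block beside the factors, -0.27 with the block alone and -0.29 with 6 samples. For D30 vs 8 h, Blm became -0.048 without factors, -0.023 with 1 factor, -0.044 with cpm over 1 in 3 samples, -0.018 without a filter, -0.047 with the block alone and -0.060 with 6 samples. Fits without 1 sample turned the sign of 35 of 756 values. The log2 fold changes then ranged, for 3 h vs D5, from -0.33 to 0.24 for okr, -0.34 to 0.68 for Fancd2 and -0.78 to 0.062 for Gen, for 5 h vs D5, from -0.35 to 0.28 for Fancd2 and -0.047 to 0.092 for Brca2, for 8 h vs D5, from -0.51 to 0.0093 for spn-B and -0.011 to 0.28 for Brca2, for D30 vs D5, from -0.010 to 0.53 for spn-B and -0.035 to 0.097 for Brca2, for D30 vs 8 h, from -0.29 to 0.096 for Brca2, -0.052 to 0.10 for Blm and -0.89 to 0.18 for Gen. The cause of these shifts was not tested. Low counts limited Fancl and spn-D, whose changes were not detectable at this depth.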
